A study of Mus musculus with 6 samples.

Results

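Smad4 loss was examined here in mouse intestinal organoids that received no TGF-β, by setting the 2 libraries labelled Smad4 KO against the 2 labelled WT, which are 4 of the 6 bulk RNA-seq libraries in the series. Intestinal organoids are small cultures of gut epithelium that grow from stem cells in a gel and form both dividing crypt-like buds and absorptive cells. Both groups grew in the same medium with EGF, Noggin, which blocks BMP ligands, and R-spondin1, which strengthens Wnt signals, and both carry 48 h in their titles. The remaining 2 libraries, Smad4 KO organoids given TGF-β, are not part of the difference itself. They did enter the choice of genes to test, the scaling between libraries and the estimate of the spread between replicates. With the 4 libraries alone 14896 genes could be tested, against 15503 with all 6. The labels give the genotypes as WT and Smad4 KO without stating how or in which part the gene was inactivated, how many organoid lines or animals were used, or whether replicates were separate cultures. A difference in the origin of the lines cannot therefore be told apart from the genotype, and p-values measure only the spread between these libraries, which may be technical.

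Smad4 is the partner that receptor-activated SMAD proteins share when they carry TGF-β, activin and BMP signals to the nucleus. In the gut, BMP signals are strongest toward the villus, where cells mature, and Wnt signals are strongest at the crypt base, where cells divide. As cells move up from the crypt they stop dividing and take on the machinery of absorption: fat and sugar handling, ion and amino acid carriers, and enzymes that modify food-borne chemicals. The sections below follow that division, from absorption and metabolism through organelles, growth and division to signalling, transcription factors, the cell surface and defence. They cover 69 lists of pathways and families, which held 1762 genes that could be tested.

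Libraries held 40.55 to 50.7 M counted units (M, 1e6), or about 10.14 to 12.67 M fragments. Levels are given as counts per 1e6 units after scaling between libraries (CPM), in the order replicate 1 and replicate 2, and are not corrected for gene length, so they compare libraries and not genes. Replicates correlated at 0.9905 in WT and 0.9898 in Smad4 KO (log2 CPM across genes), and libraries of different genotype at 0.97 to 0.9703. Defining genes of gut epithelium summed to 6382 to 6465 CPM in WT and 8542 to 8609 CPM in Smad4 KO. Markers of other cells stayed low: 5.00 and 6.87 CPM in WT and 5.65 and 5.30 CPM in Smad4 KO for leukocytes, and at most 1.22 CPM for fibroblasts and smooth muscle and 0.76 CPM for endothelium. The leukocyte marker Cd52 passed as higher, listed at 0 in both WT libraries and at 0.26 and 0.40 CPM in Smad4 KO, and it did not pass with any 1 of the 4 libraries left out (adjusted p = 0.0998 to 0.135). Stomach markers summed to 20.51 and 26.47 CPM in WT and 31.84 and 33.25 CPM in Smad4 KO, with Gkn3 the 1 that rose, and neuronal and glial markers to at most 3.36 CPM. Several of these markers were listed at 0 in all 4 libraries: 2 of leukocytes, 4 of fibroblasts and smooth muscle, 3 of endothelium, 3 of neurons and glia and 1 of stomach. Immediate early genes, which respond to handling, summed to 1004 and 1032 CPM in WT and 918 and 899 CPM in Smad4 KO. The part of the leukocyte, stomach and immediate early genes in the results was not tested.

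Smad4 (ENSMUSG00000024515, chromosome 18, 73639009 to 73703780, minus strand of GRCm38) read 99.4 and 109 CPM in WT and 21.7 and 23.1 CPM in Smad4 KO. Both Smad4 KO libraries lay below both WT libraries, and the difference was 4.67-fold (log2 fold change -2.22 with an SE of 0.10, 2 libraries a group, adjusted p = 2.7e-05 in edgeR's quasi-likelihood test, as for every adjusted p below). The value covers the whole gene, so it does not show whether intact transcript remained. Among 23 SMADs and regulators of SMAD signalling tested, 9 rose and 1 fell. Skil, a co-repressor that binds SMADs, read 21.8 and 22.9 CPM in WT and 54.9 and 67.8 CPM in Smad4 KO, and Smad3, a TGF-β-activated SMAD, 54.7 and 60.6 against 78.5 and 82.3 CPM (1.39-fold, adjusted p = 0.0037). Smad2, the other TGF-β-activated SMAD, did not pass (adjusted p = 0.094), and neither did the BMP-activated Smad1 (47.1 and 49.1 against 46.8 and 48.2 CPM, adjusted p = 0.88) and Smad5 (adjusted p = 0.31). The 1 fall was Tgif2, a co-repressor for which 61.6% of the exons overlap a transcript on the opposite strand, and leaving out WT replicate 1, WT replicate 2 or Smad4 KO replicate 2 gave Tgif2 an adjusted p of 0.0632, 0.0918 or 0.0951. With DESeq2 or a replicate block 2 of these genes were lower.

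Of 15503 genes tested, 4704 (30.3%) passed at an adjusted p under 0.05, of which 2620 (16.9%) were higher and 2084 (13.4%) lower in Smad4 KO. These shares are the background for every count of list members below. At least 2-fold differences were fewer, with 740 genes (4.77%) higher and 484 (3.12%) lower. In all 4704 the libraries of the 2 groups did not overlap, which was also so for 66.7% of the genes tested, so that lack of overlap alone says little. Leaving out WT replicate 1 left 1166 lower genes, WT replicate 2 left 1227 and Smad4 KO replicate 1 left 1387. The bar plot of shares by list shows fat absorption at the head of the lists and mitosis, nucleotide synthesis and replication at the foot. The median log2 fold change was 1.38 for fat absorption and -0.48 for mitosis, beside -0.02 for all genes.

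**Figure D1:**
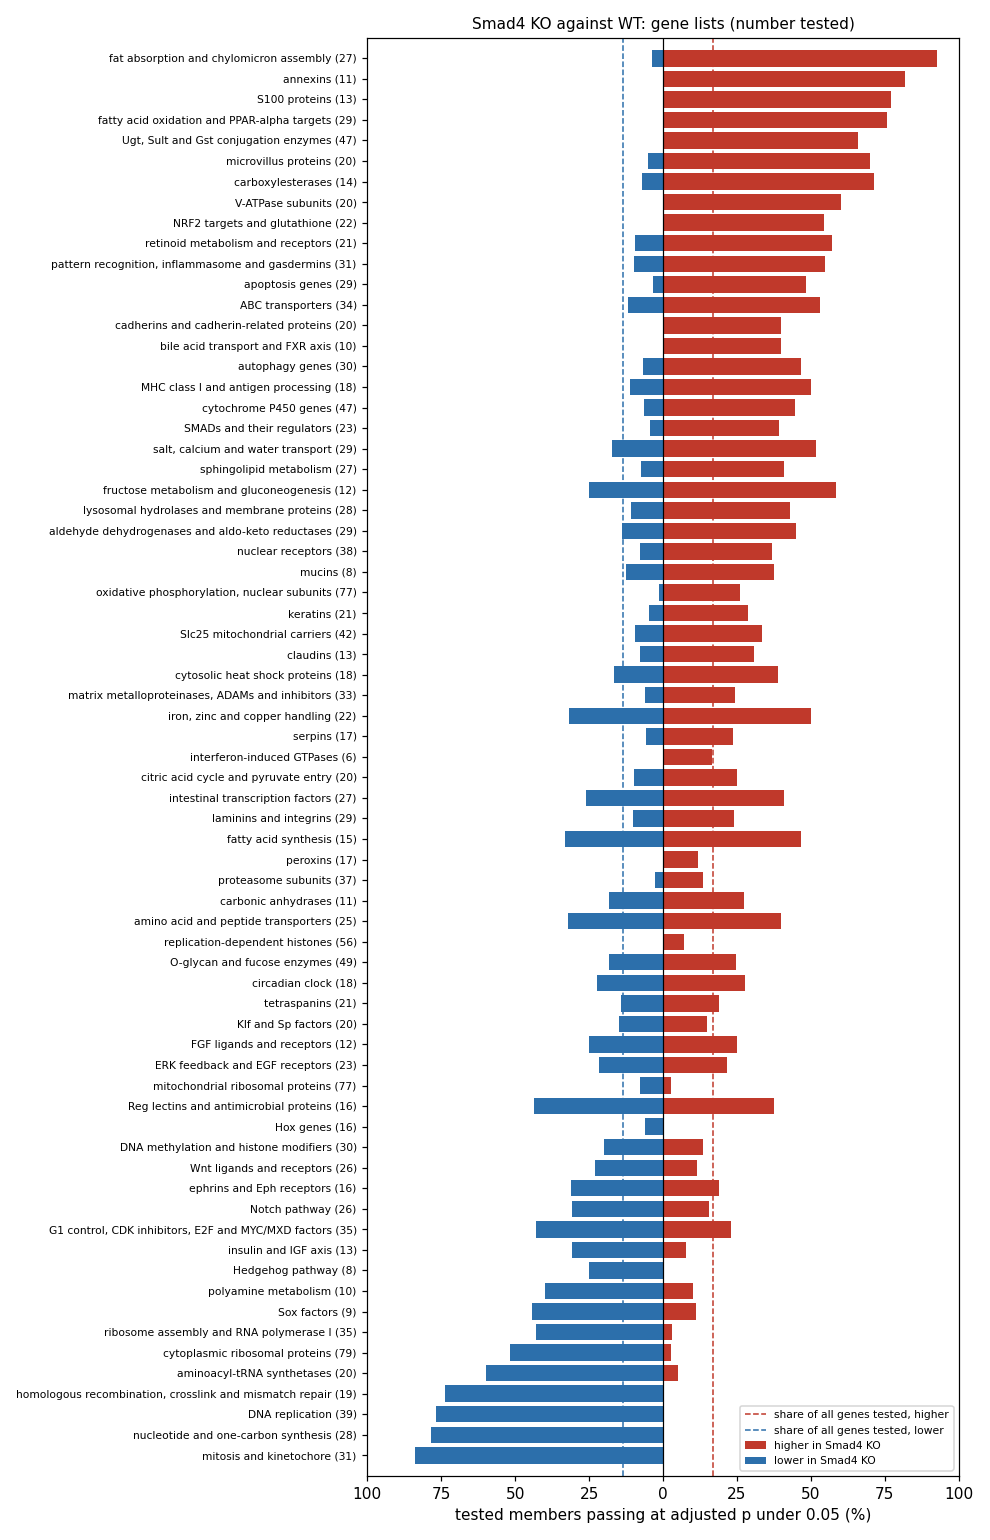
Share of the tested members of each of 69 lists that passed (edgeR adjusted p under 0.05), higher in Smad4 KO to the right and lower to the left, ordered by the difference of the shares; dashed lines mark the shares over all genes tested (16.9% and 13.4%). Fat absorption stands at the top with 25 of 27 members higher, and mitosis at the bottom with 26 of 31 lower.

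Genes for the uptake of dietary fat and its export in chylomicrons rose almost as a whole, 25 of 27, with 16 of them at least 2-fold. Apob, the structural protein of chylomicrons, read 460.4 and 448 CPM in WT and 2839.9 and 2769 CPM in Smad4 KO, a 6.17-fold rise (log2 fold change 2.63 ± 0.03 SE, 2 libraries per group, adjusted p = 7.1e-08). Cd36, a fatty acid receptor, read 2.88 and 4.43 CPM in WT and 23.6 and 22.9 CPM in Smad4 KO (6.38-fold, adjusted p = 0.00031). In both genes every Smad4 KO library was several times above every WT library. The members' levels summed to 3775 and 3734 CPM in WT and 12316 and 12444 CPM in Smad4 KO. Scarb1, a receptor for high-density lipoprotein, was the 1 that fell (48.4 and 50.7 against 33.9 and 34.8 CPM, 1.44-fold, adjusted p = 0.0024). Apoc3, an inhibitor of lipoprotein breakdown that lies next to Apoa1 and Apoa4 in the genome, did not pass, with Apoc3 at 38.1 and 32.9 against 38.2 and 32.4 CPM (adjusted p = 0.97), while Apoa1 was 9.41-fold higher. In bulk RNA more cells of a type and more RNA per cell cannot be told apart. In the same libraries Krt20, a keratin of mature gut cells, rose 3.08-fold (76.9 and 80.6 against 239.7 and 246 CPM) and Mki67, made by dividing cells, fell 1.43-fold, and their part in this and the following metabolic groups was not tested.

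Breakdown of fatty acids moved the same way, with 22 of 29 members higher and 0 lower (median log2 fold change 0.59). Ppara, the receptor that switches on fatty acid oxidation, read 13.6 and 16.3 CPM in WT and 41.1 and 49.4 CPM in Smad4 KO (3.03-fold, adjusted p = 0.00032). Cpt1a, the gate for entry into mitochondria, rose 2.46-fold (84.7 and 83.5 against 213 and 201 CPM). The carnitine carrier Slc25a20, on the list of mitochondrial carriers as well, rose 2.22-fold. A well-known PPAR-alpha target that did not pass was Cyp4a10, which read 1.18 and 1.69 CPM in WT and 0.13 and 0.099 CPM in Smad4 KO (adjusted p = 0.056). With DESeq2, with limma-trend, with no filter, with values divided by 4 or with the 4 libraries alone, 1 member of this list was lower.

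Fatty acid synthesis split, with 7 of 15 members higher and 5 lower. Me1, which supplies NADPH, rose 3.60-fold (48.8 and 48.0 against 169 and 179 CPM, adjusted p = 3.8e-06), and the desaturase Scd1 1.70-fold. Acacb, the carboxylase isoform of the outer mitochondrial membrane, whose product malonyl-CoA blocks Cpt1 enzymes, fell 5.21-fold (19.9 and 17.8 against 5.04 and 2.18 CPM, adjusted p = 0.0094). Fads1 fell 1.57-fold and Acly 1.24-fold. Fasn, the synthase itself, did not pass (754 and 703 against 739 and 662 CPM, adjusted p = 0.55). Falls numbered 3 without WT replicate 1, WT replicate 2 or Smad4 KO replicate 2.

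Of 27 sphingolipid genes 11 rose and 2 fell (Sgpp1 and Cers4), with 1 lower when any library of these groups was left out. The enzymes that break down dietary sphingomyelin at the brush border both rose. Enpp7, the intestinal sphingomyelinase, read 1.53 and 0.55 against 5.75 and 5.45 CPM (5.35-fold, adjusted p = 0.012), and Asah2, the ceramidase, 60.8 and 61.8 against 133 and 131 CPM (2.15-fold). Sptssb, a small subunit of serine palmitoyltransferase that was on no list, had the largest rise among genes outside the lists at a mean of at least 20 CPM. It read 2.94 and 2.44 CPM in WT and 45.6 and 45.6 CPM in Smad4 KO (16.9-fold, log2 fold change 4.08 ± 0.10 SE, 2 libraries per group, adjusted p = 2.3e-06). Of 10 bile acid genes tested 4 rose (Fgf15, Slc51a, Abcc2 and Abcc3) and 0 fell, with 7 higher in DESeq2, and 17.7% of the exons of Slc51a are overlapped on the other strand. Abcc2, an apical pump, rose 2.09-fold and Abcc3, a basal one, 1.98-fold. The bile acid receptor Nr1h4 (18.4 and 18.2 against 35.0 and 23.8 CPM, adjusted p = 0.092), its target Nr0b2 (adjusted p = 0.14) and the ileal uptake carrier Slc10a2 (adjusted p = 0.45) did not pass.

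Of 21 vitamin A genes 12 rose and 2 fell. Rbp2, which carries retinol inside absorptive cells, read 104 and 97.9 CPM in WT and 774 and 710.4 CPM in Smad4 KO (7.37-fold, log2 fold change 2.88 ± 0.06 SE, adjusted p = 1.1e-06). Aldh1a1, which makes retinoic acid, read 86.2 and 91.7 against 600.5 and 580.4 CPM (6.64-fold, adjusted p = 5e-07), and Adh1, which acts one step before it, rose 2.998-fold. The receptor gene Rarb, itself a known target of retinoic acid, read 1.20 and 0.75 against 3.996 and 3.02 CPM (3.57-fold, adjusted p = 0.012), and missed the threshold with WT replicate 2 or Smad4 KO replicate 1 left out (Rarb adjusted p = 0.0588 and 0.0571). The 2 falls were Cyp26b1, which degrades retinoic acid (28.4 and 27.9 against 8.60 and 7.46 CPM, 3.50-fold, adjusted p = 0.00017), and the retinol carrier Rbp4 (10.8 and 10.2 against 3.64 and 2.53 CPM, 3.41-fold). Lrat, which stores retinol as an ester, did not pass (13.8 and 15.9 against 15.2 and 13.9 CPM, adjusted p = 0.91).

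Of 12 genes of fructose use and glucose output 7 rose and 3 fell. G6pc, the phosphatase that releases free glucose, read 13.1 and 13.3 CPM in WT and 96.8 and 95.0 CPM in Smad4 KO (7.26-fold, adjusted p = 1.8e-06). Genes of fructose use rose: the carrier Slc2a5 3.28-fold (56.5 and 54.8 against 184 and 181 CPM), the kinase Khk 1.87-fold and the triokinase Tkfc 2.35-fold. The glucose carriers Slc5a1 (1.64-fold) and Slc2a2 (1.56-fold) rose as well. Pck2, the mitochondrial form of the gluconeogenic carboxykinase, fell 2.15-fold (190.5 and 197 against 94.7 and 85.3 CPM, adjusted p = 0.00013). The other falls were small: leaving out WT replicate 1 or Smad4 KO replicate 1 gave Fbp1 an adjusted p of 0.0661 or 0.061 and Slc2a1 0.121 or 0.0826, and 1 fall was counted in each of these fits.

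**Figure D2:**
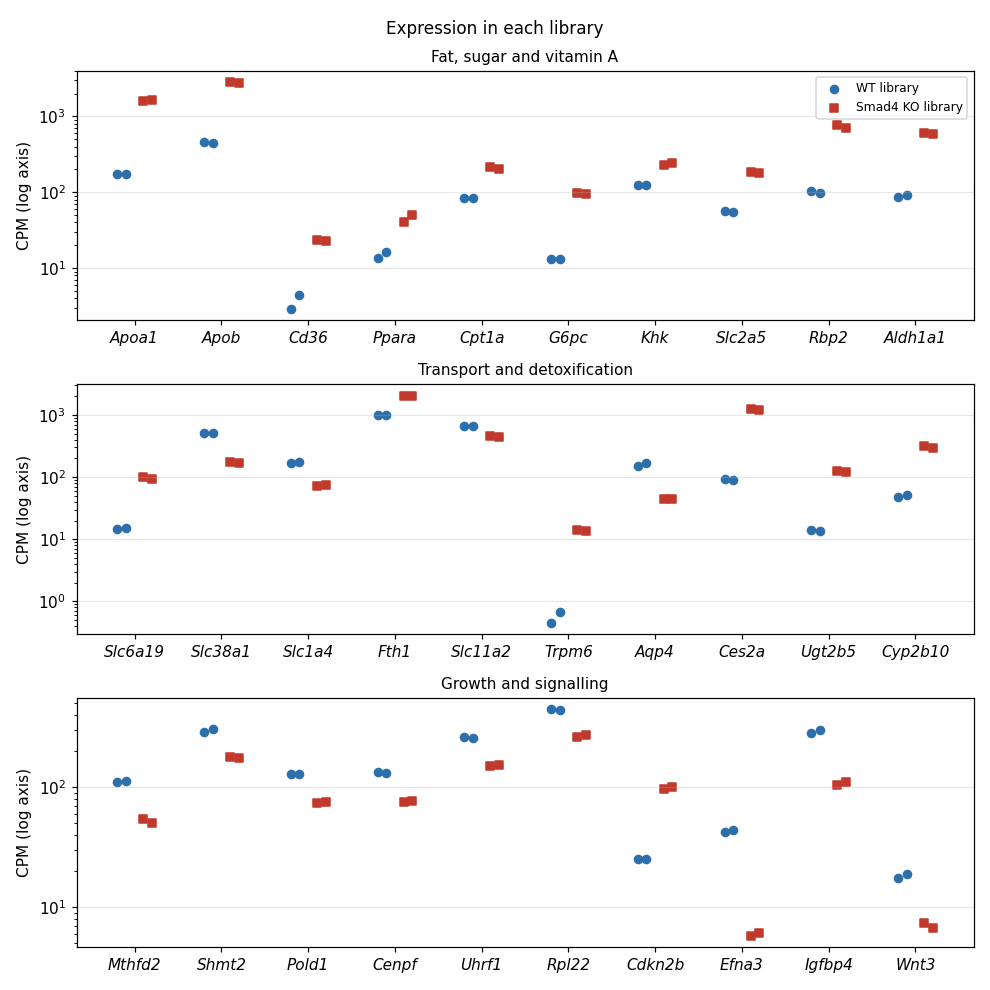
Level of 30 genes in each WT library (circles) and each Smad4 KO library (squares), in CPM on a log axis, for fat, sugar and vitamin A (top), transport and detoxification (middle) and growth and signalling (bottom). The genes shown were picked among those that passed, none of which overlap between groups, and Apob, for example, stands at 448 and 460 CPM in WT and 2769 and 2840 CPM in Smad4 KO.

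Amino acid carriers divided into risers and fallers, 10 and 8 of 25. Carriers of the absorptive brush border were among those that rose. Slc6a19, the main apical carrier of neutral amino acids, read 14.6 and 15.2 CPM in WT and 100.1 and 93.0 CPM in Smad4 KO (6.48-fold, adjusted p = 3.3e-06). Slc7a9 rose 3.15-fold and its partner Slc3a1 2.29-fold (57.3 and 54.5 against 128 and 128 CPM, adjusted p = 2.7e-05), and together they take up cystine and basic amino acids. Slc15a1, the peptide carrier, rose 2.04-fold. Carriers known for supplying growing cells were among those that fell. Slc38a1 read 520.4 and 506 against 174 and 169 CPM (2.996-fold lower, adjusted p = 2.8e-06), Slc1a4 167 and 173 against 71.5 and 74.0 CPM (2.33-fold lower), and the glutamine carrier Slc1a5 320.5 and 312 against 192 and 206 CPM (1.59-fold lower). Slc7a5, which imports leucine, fell 1.56-fold and Slc7a11, which imports cystine, 1.56-fold. By contrast the related carrier Slc38a2 rose 1.36-fold, and Slc3a2, the partner of Slc7a5 and Slc7a11, rose as well. Slc1a1, a glutamate carrier of the brush border, went against the other brush border carriers named here. It fell 2.47-fold (38.2 and 42.6 against 15.4 and 17.3 CPM, adjusted p = 0.0017), although 31.9% of its exons overlap a transcript on the other strand. In Slc38a1 and Slc38a2 alike the groups did not overlap.

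Of 22 genes of metal handling 11 rose and 7 fell, and 4 did not pass, among them the iron regulators Hfe (adjusted p = 0.73) and Ireb2 (adjusted p = 0.22). The ferritin heavy chain Fth1 read 986 and 988 CPM in WT and 2046 and 2009 CPM in Smad4 KO (2.05-fold, adjusted p = 5.6e-07), and the light chain Ftl1 rose 1.91-fold, although 34.6% of its exons overlap a transcript on the other strand. The exporter Slc40a1 (97.1 and 95.5 against 176 and 157 CPM, 1.73-fold) and the iron oxidase Heph (1.89-fold) rose too. The apical iron carrier Slc11a2 read 674 and 667 against 452 and 449 CPM (1.49-fold lower, adjusted p = 0.00014), the apical reductase Cybrd1 fell 1.34-fold and the transferrin receptor Tfrc 1.20-fold. The metallothioneins, which bind zinc and copper, also rose, Mt1 1.99-fold and Mt2 1.89-fold, and the zinc carrier Slc30a2 fell 2.68-fold.

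Ion and water transport rose in 15 of 29 genes and fell in 5. Trpm6, a magnesium channel, read 0.46 and 0.69 CPM in WT and 13.9 and 13.6 CPM in Smad4 KO (24.2-fold), and Slc34a2, a phosphate carrier, 1.53 and 2.01 against 34.3 and 40.3 CPM (21.2-fold, adjusted p = 1.3e-05). The WT levels of both rest on few fragments, so the folds are imprecise. The pair that absorbs sodium chloride rose together, Slc26a3 3.24-fold (53.0 and 50.8 against 171 and 166 CPM) and Slc9a3 2.87-fold (18.03 and 17.3 against 49.9 and 51.3 CPM). Cftr, the chloride channel of secretion, did not pass (184 and 239.5 against 206 and 158 CPM, adjusted p = 0.35). Water channels split, with Aqp8 11.2-fold higher (0.95 and 1.19 against 13.3 and 10.7 CPM), Aqp4 3.60-fold lower and Aqp1 2.18-fold lower (243 and 254 against 115 and 113 CPM). Of 11 carbonic anhydrases 3 rose, among them Car2 (1.71-fold) and Car13 (1.57-fold), and 2 fell. The falls of carbonic anhydrases numbered 0 without WT replicate 1 and 1 without WT replicate 2 or Smad4 KO replicate 2.

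Enzymes that modify foreign chemicals were among the families with the most rises. Of 47 conjugation enzymes of the Ugt, Sult and Gst families 31 rose and 0 fell (median log2 fold change 0.89), of 14 carboxylesterases 10 rose and 1 fell (1.03), and of 47 cytochrome P450 genes 21 rose and 3 fell (0.67). Ces2a, an esterase of gut and liver, read 94.5 and 90.2 CPM in WT and 1266 and 1219 CPM in Smad4 KO (13.5-fold, log2 fold change 3.75 ± 0.04 SE, 2 libraries per group, adjusted p = 7.1e-08). Ugt2b5, a glucuronosyltransferase, read 13.9 and 13.5 against 127 and 121 CPM (8.998-fold). A known target of the receptor CAR, Cyp2b10, read 47.3 and 50.98 against 313 and 299 CPM (6.23-fold), and a known target of the receptor PXR, Cyp3a11, 34.9 and 35.8 against 181 and 174 CPM (5.03-fold). The genes of these receptors rose less, Nr1i3 (CAR) 2.33-fold (22.99 and 26.0 against 55.7 and 58.4 CPM) and Nr1i2 (PXR) 1.72-fold. Near-identical copies within the Ces, Ugt and Cyp families, and exons that Ugt1a genes share, make single members uncertain. Ugt1a6b, for instance, read 0.898 and 1.46 against 124 and 145 CPM, and 60.6% of its exonic bases overlap other genes, with Ugt1a7c the largest overlap. Cyp2e1 fell 4.60-fold (10.2 and 9.72 against 2.44 and 1.88 CPM). P450 falls numbered 6 with DESeq2 and 5 with values divided by 4, with the 4 libraries alone or with limma-trend, and 2 conjugation enzymes were lower with the 4 libraries alone. The 1 esterase that fell, Ces1c, had an adjusted p of 0.059 when WT replicate 1 was left out and 0.0602 when WT replicate 2 was.

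Related oxidoreductases, pumps and antioxidant genes rose in similar shares. Of 29 aldehyde dehydrogenases and aldo-keto reductases 13 rose and 4 fell, of 34 ABC transporters 18 rose and 4 fell, and of 22 NRF2 targets and glutathione genes 12 rose and 0 fell. Akr1b8 read 15.8 and 15.8 against 83.5 and 81.0 CPM (5.21-fold) and Akr1c19 54.8 and 55.3 against 286 and 282 CPM (5.16-fold). The pump that returns plant sterols to the lumen is a pair of proteins, of which Abcg5 rose 3.72-fold and Abcg8 3.09-fold. Gclc, the catalytic subunit of glutathione synthesis, rose 2.32-fold (83.8 and 83.1 against 197 and 190.1 CPM), and Nqo1, a standard NRF2 target, 2.50-fold. The NRF2 targets Hmox1 (9.78 and 7.35 against 11.5 and 10.2 CPM, adjusted p = 0.18) and Txnrd1 (423 and 413 against 420.2 and 436 CPM, adjusted p = 0.50) did not pass. Falls of ABC transporters numbered 2 without Smad4 KO replicate 2.

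The HNF4 element, a binding motif of the nuclear receptors Hnf4a and Hnf4g, was searched as CAAAGTCCA on both strands of RefSeq promoters of build GRCm38.p6, each running from 250 bases before to 50 after the annotated start. It was in 6 of 36 promoters of tested P450 genes, and in 0.5% of the 9219 promoters matched to tested genes, though P450 copies share sequence and are not independent. Several other lists with many rises held none. It was in 0 of 19 promoters for fat absorption, 0 of 21 for fatty acid oxidation and 0 of 33 for Ugt, Sult and Gst enzymes. The same was so for carboxylesterases (0 of 9) and microvillus proteins (0 of 13). Amino acid and peptide transporters (1 of 15), sphingolipid metabolism (1 of 18) and MHC class I genes (1 of 14), which also had rises, did hold the element. So did cytoplasmic ribosomal proteins (2 of 50) and Wnt ligands and receptors (1 of 15), in which falls outnumbered rises, and mucin-type sugar enzymes (1 of 26). Replication (0 of 26) and mitosis (0 of 24), which fell, held none. Of promoters of genes at least 2-fold higher 2.0% (9 of 447) held it, and of those at least 2-fold lower 0.4% (1 of 278). The following promoters of 3 higher genes, picked among those with a match, show it in capitals, once in each: the P450 Cyp3a11 (5.03-fold), the brush border phosphatase Alpi (4.16-fold, 316 and 319 against 1334 and 1305 CPM) and the amino acid carrier subunit Slc3a1 (2.29-fold).
Cyp3a11 (chr5:145879805-145880104, minus strand): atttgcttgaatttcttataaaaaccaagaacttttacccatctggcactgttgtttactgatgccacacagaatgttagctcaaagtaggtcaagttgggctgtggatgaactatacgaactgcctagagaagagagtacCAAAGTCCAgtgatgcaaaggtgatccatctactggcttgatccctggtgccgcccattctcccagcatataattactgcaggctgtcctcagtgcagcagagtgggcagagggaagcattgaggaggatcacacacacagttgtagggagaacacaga
Alpi (chr1:87101557-87101856, minus strand): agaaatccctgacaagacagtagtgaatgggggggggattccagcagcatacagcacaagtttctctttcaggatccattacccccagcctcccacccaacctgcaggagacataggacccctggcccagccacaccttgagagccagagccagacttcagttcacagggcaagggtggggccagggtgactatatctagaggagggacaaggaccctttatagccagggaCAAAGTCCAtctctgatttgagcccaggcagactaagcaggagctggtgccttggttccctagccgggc
Slc3a1 (chr17:85028097-85028396, plus strand): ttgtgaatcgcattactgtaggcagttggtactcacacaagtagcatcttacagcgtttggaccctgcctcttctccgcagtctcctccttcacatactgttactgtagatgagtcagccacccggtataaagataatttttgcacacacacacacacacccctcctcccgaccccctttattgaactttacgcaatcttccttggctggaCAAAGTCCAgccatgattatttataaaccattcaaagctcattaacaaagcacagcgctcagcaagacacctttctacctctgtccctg
A match describes letters only and shows no binding. Of the receptors themselves, Hnf4g rose 3.21-fold (68.8 and 69.0 against 215 and 227 CPM, adjusted p = 5.9e-06) and Hnf4a 1.12-fold (903 and 898 against 1020.2 and 1002 CPM, adjusted p = 0.0019).

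Organelles differed in how far they moved. Genes of the V-ATPase, the proton pump that acidifies lysosomes and endosomes, rose in 12 of 20 cases with 0 falls (median log2 fold change 0.47), for example Atp6v0d1 (38.8 and 38.2 against 70.4 and 72.7 CPM, 1.86-fold, adjusted p = 0.00016). Of 28 lysosomal genes 12 rose and 3 fell, led by the acid lipase Lipa (14.4 and 17.6 against 44.6 and 37.0 CPM, 2.55-fold), and of 30 autophagy genes 14 rose and 2 fell, led by the lipid transfer protein Atg2a (50.97 and 50.0 against 97.6 and 97.2 CPM, 1.93-fold). Of 17 peroxins, which assemble peroxisomes, 2 rose, among them Pex16. Of 37 proteasome subunits 5 rose and 1 fell. Lysosomal falls numbered 1 without WT replicate 2 or Smad4 KO replicate 1, autophagy falls 1 with any 1 of the 4 libraries left out, and peroxin rises 1 without WT replicate 1 or Smad4 KO replicate 1 and 4 with DESeq2. Proteasome rises ranged from 2 (leaving out WT replicate 1 or either Smad4 KO library) through 3 (WT replicate 2) to 9 (DESeq2). Its 1 fall, Psmb9, did not pass with WT replicate 1, WT replicate 2 or Smad4 KO replicate 1 left out (Psmb9 adjusted p = 0.184, 0.0673 and 0.158).

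Nuclear genes of the respiratory chain and ATP synthase gave 20 rises and 1 fall among 77, with a median log2 fold change of 0.11. Uqcrc1, a core subunit of complex III, read 366 and 369.6 against 486 and 510.1 CPM (1.35-fold, adjusted p = 0.00041). The rises numbered 12 without either WT library and 9 without Smad4 KO replicate 2, and the 1 fall, Ndufc2, was lost with WT replicate 1 or either Smad4 KO library left out (Ndufc2 adjusted p = 0.0659, 0.0501 and 0.0529). In the citric acid cycle and pyruvate entry 5 of 20 rose and 2 fell, with Pcx, which turns pyruvate into oxaloacetate, 2.19-fold higher (31.0 and 32.0 against 73.7 and 64.1 CPM) and Idh2 1.73-fold lower (172 and 172 against 93.9 and 105 CPM). Rises there numbered 3 without WT replicate 2 or Smad4 KO replicate 1, and the other fall, Idh3a, did not pass when any 1 of the 4 libraries was left out (Idh3a adjusted p = 0.0561 to 0.0787). Of 42 mitochondrial carriers of the Slc25 family 14 rose and 4 fell, with Slc25a48 5.07-fold higher (2.41 and 3.72 against 15.1 and 15.8 CPM) and the aspartate-glutamate carrier Slc25a13 1.66-fold lower (71.5 and 71.6 against 43.8 and 42.7 CPM). Of the 13 protein-coding genes of the mitochondrial genome, which were on no list and were added after their values were seen, 6 rose and 3 fell. The ATP synthase subunit gene mt-Atp6 read 455 and 487 CPM in WT and 2651 and 2655 CPM in Smad4 KO (5.64-fold, adjusted p = 2e-07), far above the change in any other of the 13. It passed in every alternative fit. The next largest were rises of mt-Nd4l (1.32-fold) and mt-Cytb (1.25-fold), while mt-Co1 fell 1.07-fold (19175 and 19264 against 17948 and 17947 CPM). Genes on this genome overlap or adjoin each other, and how the authors' counting divided reads between them was not tested.

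Of 79 cytoplasmic ribosomal proteins 41 fell and 2 rose (median log2 fold change -0.17), of 20 cytoplasmic aminoacyl-tRNA synthetases 12 fell and 1 rose (-0.22), and of 35 genes of ribosome assembly and RNA polymerase I 15 fell and 1 rose (-0.20). Rpl17, which lies on chromosome 18 as Smad4 does, had the largest fall among the ribosomal proteins named, at 558 and 608 CPM in WT and 154 and 275 CPM in Smad4 KO (2.72-fold lower, adjusted p = 0.0076). Rpl22 read 445 and 434 CPM in WT and 259.6 and 273 CPM in Smad4 KO (1.65-fold lower, adjusted p = 0.0031), while Rpl23 fell 1.26-fold (429.9 and 417 against 351 and 322 CPM). The glycine and leucine synthetases fell as well, Gars 1.34-fold and Lars 1.2995-fold, and so did assembly factors, Noc2l 1.59-fold (20.9% of its exons are overlapped on the other strand) and Rrp1b 1.64-fold. Bop1, another assembly factor, was the 1 that rose there (78.4 and 75.9 against 98.4 and 102 CPM, 1.301-fold). Among mitochondrial ribosomal proteins, 6 of 77 were lower, a smaller share than the 13.4% of all genes, and 2 higher. These counts moved with single libraries. Falls of cytoplasmic ribosomal proteins numbered 26 without Smad4 KO replicate 1, falls of assembly genes 7 or 8 with any 1 of the 4 libraries left out, and falls of synthetases 6 without WT replicate 1 and 7 without either Smad4 KO library. The 1 synthetase that rose, Qars, was lost with either WT library or Smad4 KO replicate 2 left out (Qars adjusted p = 0.0692, 0.0836 and 0.0883). For mitochondrial ribosomal proteins, leaving out WT replicate 1, WT replicate 2 or Smad4 KO replicate 1 left 3, 2 or 1 falls, leaving out any library left 0 or 1 rises, and DESeq2 called 11 lower and 6 higher.

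Supply of nucleotides and one-carbon units fell in 22 of 28 genes and rose in 0 (median log2 fold change -0.43). Mitochondrial folate enzymes led. Mthfd2 read 109 and 113 CPM in WT and 53.8 and 50.2 CPM in Smad4 KO (2.14-fold lower, log2 fold change -1.10 ± 0.07 SE, 2 libraries per group, adjusted p = 0.00011), Mthfd1l 92.1 and 99.2 against 56.5 and 56.0 CPM (1.70-fold lower) and Shmt2 286 and 306 against 178 and 173 CPM (1.69-fold lower). Serine synthesis (Phgdh, Psat1 and Psph), purine synthesis (Ppat, Gart, Paics, Adsl and others) and pyrimidine synthesis (Dhodh, Umps and Ctps) were all represented among the falls. Dhodh was lost with WT replicate 1, WT replicate 2 or Smad4 KO replicate 2 left out (adjusted p = 0.0845, 0.157 and 0.143), and Paics with WT replicate 1 left out (0.0519). Of 10 polyamine genes 4 fell, among them Odc1, which makes the first polyamine (193 and 198 against 139 and 158 CPM, 1.32-fold), and 1 rose, Sat1, which starts their breakdown (54.3 and 54.8 against 87.9 and 93.4 CPM, 1.66-fold). Polyamine falls numbered 2 without WT replicate 1 or Smad4 KO replicate 2.

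DNA replication, repair and mitosis fell together. Of 39 replication genes 30 fell and 0 rose (median log2 fold change -0.47), of 31 mitosis genes 26 fell and 0 rose (-0.48), and of 19 genes of homologous recombination, crosslink and mismatch repair 14 fell and 0 rose (-0.48). Falls were mostly under 2-fold, as the plot of members by list shows. Pold1, the catalytic subunit of a replicative polymerase, read 127 and 129 CPM in WT and 73.4 and 75.6 CPM in Smad4 KO (1.72-fold lower, adjusted p = 0.00016). Cenpf, a kinetochore protein, read 133 and 131 against 75.2 and 76.3 CPM (1.74-fold lower), and Fancd2, central to crosslink repair, 38.5 and 36.1 against 18.8 and 21.6 CPM (1.85-fold lower). In each of these the groups did not overlap. Falls of repair genes numbered 9 without WT replicate 1, and 1 replication gene was higher in that fit.

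**Figure D3:**
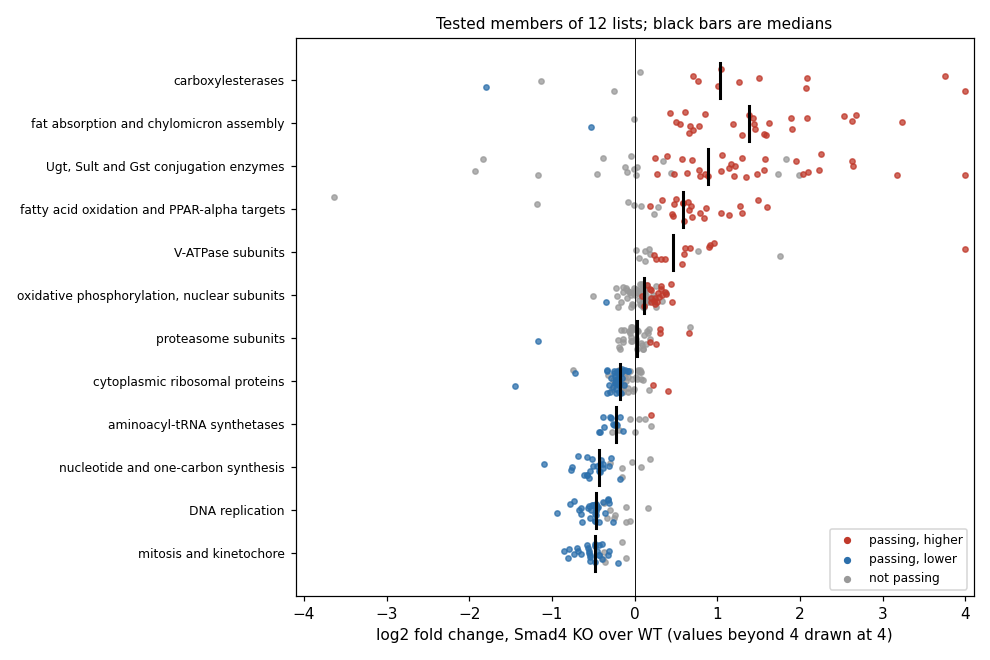
Log2 fold change (Smad4 KO over WT) of each tested member of 12 lists, coloured by whether it passed and in which direction, with the list's median as a black bar. Metabolic lists at the top spread widely to the right (carboxylesterase median 1.03), while replication and mitosis at the bottom form narrow clouds left of 0 (medians -0.47 and -0.48).

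The E2F element, a motif of the factors that switch on genes for S phase, was searched as TTTGGCGC on both strands of the same promoters. It was in 6 of 26 replication gene promoters and in 0.9% of all 9219, and these 6 genes (Cdt1, Mcm3, Mcm5, Mcm6, Pola1 and Pole2) fell, as did 30 of the 39 replication genes tested. Mcm5 was lost with WT replicate 1 left out (adjusted p = 0.0522) and Pola1 with WT replicate 2 left out (0.055). In other lists with many falls it was in 1 of 24 promoters for mitosis, 0 of 22 for nucleotide synthesis and 0 of 12 for repair. Lists with more rises than falls also held it, with 2 of 14 promoters for MHC class I, 2 of 23 for autophagy and 1 of 13 for the V-ATPase. It was in 0 of 19 for fat absorption and 0 of 21 for fatty acid oxidation. The element was therefore not particular to lists that fell. Of promoters of genes at least 2-fold lower 0.7% (2 of 278) held it, and of those at least 2-fold higher 0.2% (1 of 447). Over genes that fell by any amount the share was 1.5% of 1287, and over those that rose 0.8% of 1609. Promoters of 3 of the 6 are shown, with matches in capitals, because they encode parts of the replicative helicase and of a polymerase: Mcm3 (202 and 179.8 against 115 and 130.4 CPM, 1.55-fold lower), Mcm6 (242 and 246 against 172 and 176 CPM, 1.40-fold lower) and Pole2 (23.1 and 22.04 against 14.8 and 13.6 CPM, 1.59-fold lower).
Mcm3 (chr1:20820263-20820562, minus strand): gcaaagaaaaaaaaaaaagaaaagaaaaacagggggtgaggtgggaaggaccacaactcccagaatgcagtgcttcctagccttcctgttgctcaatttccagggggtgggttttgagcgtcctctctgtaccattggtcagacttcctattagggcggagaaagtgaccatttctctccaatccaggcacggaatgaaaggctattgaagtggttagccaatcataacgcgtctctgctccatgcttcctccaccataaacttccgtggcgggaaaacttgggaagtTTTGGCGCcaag
Mcm6 (chr1:128359656-128359955, minus strand): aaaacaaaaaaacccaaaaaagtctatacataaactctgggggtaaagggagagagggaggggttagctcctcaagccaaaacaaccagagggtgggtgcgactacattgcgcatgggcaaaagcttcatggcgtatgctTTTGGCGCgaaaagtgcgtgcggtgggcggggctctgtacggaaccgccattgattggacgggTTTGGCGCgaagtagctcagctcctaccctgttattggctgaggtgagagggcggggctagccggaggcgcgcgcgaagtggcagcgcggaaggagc
Pole2 (chr12:69228141-69228440, minus strand): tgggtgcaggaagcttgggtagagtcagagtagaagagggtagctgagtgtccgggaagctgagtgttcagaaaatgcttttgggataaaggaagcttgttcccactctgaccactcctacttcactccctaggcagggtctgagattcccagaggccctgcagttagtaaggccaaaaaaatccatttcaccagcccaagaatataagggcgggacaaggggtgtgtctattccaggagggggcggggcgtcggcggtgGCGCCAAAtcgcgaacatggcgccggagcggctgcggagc
Again a match shows letters and not binding.

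Genes that control entry into the cell cycle moved in both directions, 8 of 35 up and 15 down. Inhibitors encoded side by side rose: Cdkn2b, a CDK4/6 inhibitor, read 25.4 and 25.1 CPM in WT and 96.4 and 99.5 CPM in Smad4 KO (3.88-fold, adjusted p = 4.6e-06), and Cdkn2a, which encodes both p16 and ARF, read 0.25 and 0.18 against 4.43 and 4.24 CPM (19.7-fold, adjusted p = 9e-05), a fold that rests on few fragments in WT. Cdkn1a, the p53-regulated inhibitor, rose 1.21-fold. Other members of the CDK inhibitor families, Cdkn2c, Cdkn2d and Cdkn1b, fell. Mxd1, which opposes MYC, rose 2.38-fold (25.6 and 31.2 against 67.0 and 68.0 CPM), and Myc fell 1.71-fold (88.9 and 106 against 53.1 and 61.3 CPM, adjusted p = 0.0052). E2f1 fell 1.62-fold and Ccnd1 1.14-fold, while E2f2 rose. Of the proteins that restrain E2F factors Rb1 rose 1.25-fold and Rbl2 1.33-fold, whereas Rbl1 fell. Of the other MXD factors that passed, Mxd4 rose and Mxi1 fell, and Mxd4 was lost with WT replicate 1 left out. Rises numbered 5 without WT replicate 1 or Smad4 KO replicate 1, falls 9 without WT replicate 2 or Smad4 KO replicate 2, and Cdkn2d had an adjusted p of 0.0868 with WT replicate 1 left out and 0.0761 with Smad4 KO replicate 1 left out. Calls were also lost for Cdkn1b with any 1 library left out, for Cdkn1a without WT replicate 1 or either Smad4 KO library, for Rb1 without either WT library or Smad4 KO replicate 1, and for Ccnd1 and Rbl2 without WT replicate 2 or either Smad4 KO library (adjusted p = 0.0513 to 0.18 over these 5 genes).

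Of 56 histone genes tested 4 rose (7.1%, beside 16.9% of all genes) and 0 fell. The rises included the linker histone Hist1h1c (19.7 and 22.2 against 52.0 and 49.4 CPM, 2.42-fold) and Hist1h2bc (2.29-fold). All 56 together summed to only 91.0 and 96.8 CPM in WT and 159 and 155 CPM in Smad4 KO. Falls as small as those of the replication genes could have been missed at such levels. Most histone messages lack a poly(A) tail, and whether the libraries selected for one is not given in the sources used here. Among 30 writers and erasers of chromatin marks 4 rose and 6 fell. The pair that copies DNA methylation after replication fell, Uhrf1 1.70-fold (259 and 254 against 149 and 152 CPM, adjusted p = 6.7e-05) and Dnmt1 1.36-fold (309 and 314 against 226 and 231 CPM). Dnmt3b, which adds new methylation, fell 1.77-fold. Rises among chromatin genes numbered 2 without WT replicate 1 or Smad4 KO replicate 1.

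Signalling pathways other than that of SMADs changed in single parts. Of 26 Notch genes 4 rose and 8 fell, among the falls Lfng, which modifies Notch receptors (37.0 and 34.8 against 18.7 and 20.4 CPM, 1.83-fold), the receptors Notch1 (1.28-fold) and Notch2 (1.40-fold) and the ligand Dll4 (1.70-fold). The ligands Jag1 (1.70-fold) and Dll1 (1.49-fold, with 20.5% of its exons overlapping a transcript on the other strand) rose, and Hes1, the main target, did not pass (68.9 and 73.7 against 86.4 and 79.9 CPM, adjusted p = 0.075). Notch falls numbered 3 without WT replicate 2 or Smad4 KO replicate 1, and 7 rose with DESeq2. Dll4 was lost with any 1 library left out, and Notch1 and Notch2 with WT replicate 2 or Smad4 KO replicate 1 left out (adjusted p = 0.0508 to 0.114). Of 26 Wnt ligands and receptors 3 rose and 6 fell, with Wnt3, the Wnt ligand of Paneth cells, at 17.6 and 19.1 against 7.41 and 6.76 CPM (2.59-fold lower, adjusted p = 0.0009), Fzd1 at 10.8 and 9.72 against 2.39 and 2.77 CPM (3.96-fold lower) and Fzd5 at 149.7 and 141 against 290.1 and 273 CPM (1.94-fold higher, with 17.8% of its exons overlapped on the other strand). Wnt falls numbered 3 without WT replicate 1.

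Of 16 ephrins and Eph receptors, which keep crypt cells in place, 3 rose and 5 fell. Efna3 read 41.9 and 43.8 CPM in WT and 5.75 and 6.09 CPM in Smad4 KO (7.23-fold lower, adjusted p = 1.1e-05), although 14.1% of its exons overlap a transcript on the other strand, and Efnb2 read 47.5 and 49.7 against 149 and 147 CPM (3.04-fold higher, adjusted p = 5.9e-06). Ephrin and Eph falls numbered 3 without WT replicate 1, WT replicate 2 or Smad4 KO replicate 1. The receptor partners that carry neuregulin signals rose, Erbb3 2.14-fold (215 and 217 against 454 and 469 CPM) and Erbb2 1.48-fold, within a list of ERK feedback genes and EGF receptors in which 5 of 23 rose and 5 fell. Igfbp4, an inhibitor of IGF signals, fell 2.72-fold (284 and 298 against 104 and 109 CPM, adjusted p = 7.5e-06) and Irs2 rose 1.64-fold, with 4 falls and 1 rise among 13 genes of the insulin and IGF axis. These 4 falls were 2 without either WT library. Smo, the signal transducer of Hedgehog, fell 1.68-fold (85.7 and 87.6 against 51.7 and 51.7 CPM) and Cdon 1.54-fold, the 2 falls among 8 Hedgehog genes, while the ligand Ihh did not pass (76.0 and 71.6 against 82.0 and 71.4 CPM, adjusted p = 0.69). Of 12 FGF genes 3 rose and 3 fell, the falls numbering 1 without WT replicate 1 and 0 without WT replicate 2 or Smad4 KO replicate 1.

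Of 29 cell death genes 14 rose and 1 fell. Bcl2l15, a BCL2-family member of the gut, read 4.20 and 4.54 against 32.1 and 32.0 CPM (7.33-fold, with 21.0% of its exons overlapping a neighbouring transcript), and the death receptor Fas 1.99 and 2.35 against 7.58 and 9.09 CPM (3.85-fold). The list held inducers (Bax, Bbc3 and Bcl2l11) and inhibitors (Mcl1, Bcl2l1 and Cflar) among the genes that rose. Bcl2l1 was lost with any 1 library left out, Bbc3 without WT replicate 2 or either Smad4 KO library, and Bax without WT replicate 1 (adjusted p = 0.0503 to 0.149). The 1 fall, Casp8, did not pass with WT replicate 1, WT replicate 2 or Smad4 KO replicate 1 left out (Casp8 adjusted p = 0.176, 0.105 and 0.125).

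Of 38 nuclear receptors 14 rose and 3 fell. Beside those named above, Nr1h3, the LXR-alpha receptor of sterols, read 11.2 and 9.86 against 24.8 and 26.8 CPM (2.45-fold), and Vdr, the vitamin D receptor, rose 1.19-fold. Esrrg fell 3.05-fold (27.1 and 26.6 against 8.09 and 9.52 CPM, adjusted p = 0.00065). Among 27 intestinal transcription factors 11 rose and 7 fell. Creb3l3, a membrane-bound factor of lipid genes, read 42.8 and 43.7 CPM in WT and 279 and 298 CPM in Smad4 KO (6.67-fold, adjusted p = 1.4e-06). Tcf7, a Wnt effector, fell 2.52-fold (27.2 and 29.7 against 11.4 and 11.2 CPM), and Sox9, a factor of crypt cells, 1.49-fold. Cdx2, the master factor of intestinal identity, did not pass (209 and 203 against 194 and 193 CPM, adjusted p = 0.18). Falls in this list numbered 3 without WT replicate 1, WT replicate 2 or Smad4 KO replicate 1 and 4 without Smad4 KO replicate 2.

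Of 20 Klf and Sp factors 3 rose, with Klf5 at 265 and 269.6 against 406 and 407 CPM (1.52-fold), and 3 fell, with the Wnt target Sp5 at 37.9 and 41.2 against 18.9 and 17.5 CPM (2.17-fold). Of 9 Sox factors 4 fell, among them Sox12 (23.7 and 19.9 against 9.06 and 6.57 CPM, 2.79-fold), and 1 rose, and of 16 Hox genes 1 fell. Of 18 clock genes 5 rose, among them the activators Arntl (15.8 and 15.1 against 24.3 and 29.5 CPM, 1.74-fold) and Clock (1.45-fold) and the repressor Nr1d1 (1.299-fold), and 4 fell, among them the repressors Per2 (54.4 and 56.9 against 30.1 and 31.2 CPM, 1.82-fold) and Per3 (1.40-fold). The time of day at collection is not given in the labels and cannot be told apart from genotype. Klf and Sp falls numbered 1 without WT replicate 1, clock falls 2 without WT replicate 2 or Smad4 KO replicate 2, Hox falls 0 without WT replicate 1, and Sox rises 0 without Smad4 KO replicate 1. Nr1d1 was lost with WT replicate 1, WT replicate 2 or Smad4 KO replicate 1 left out (adjusted p = 0.0865, 0.136 and 0.147).

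At the cell surface, calcium-binding families and the brush border rose. Annexins rose in 9 of 11 cases and S100 proteins in 10 of 13, with 0 falls in both. S100a6 read 37.1 and 43.9 CPM in WT and 375 and 357 CPM in Smad4 KO (9.04-fold, adjusted p = 4.2e-05), S100g, which carries calcium through absorptive cells, rose 3.23-fold (18.5 and 19.8 against 58.7 and 64.9 CPM) and Anxa10 3.25-fold (27.2 and 30.6 against 90.2 and 97.9 CPM). Of 20 microvillus proteins 14 rose, led by Mpp1 (3.49-fold) and with Myo1a, the motor that ties actin to the membrane, at 236 and 228 against 637 and 609 CPM (2.69-fold), and 1 fell, Espn, an actin bundler (55.1 and 65.4 against 36.2 and 37.0 CPM, 1.65-fold), with a second fall without WT replicate 2. Cadherins rose in 8 of 20 cases with 0 falls, including the brush border linkers Cdhr5 (2.69-fold) and Cdhr2 (1.55-fold) and the intestinal cadherin Cdh17 (1.52-fold).

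Barrier and matrix families moved nearer to the background. Keratins rose in 6 of 21 cases, claudins in 4 of 13, laminins and integrins in 7 of 29, and metalloproteinases, ADAMs and their inhibitors in 8 of 33, and 1, 1, 3 and 2 fell. Krt19 read 1082 and 1130.1 against 2031 and 2143 CPM (1.89-fold), Cldn23 17.3 and 20.8 against 33.0 and 34.2 CPM (1.77-fold) and Itgb5 13.1 and 16.4 against 44.5 and 44.4 CPM (3.02-fold). Of 17 serpins 4 rose and 1 fell (Serping1, at 0.46 and 0.57 CPM in WT and listed at 0 in both Smad4 KO libraries), which was lost with any 1 of the 4 libraries left out, with the protease inhibitor Serpinb1a at 93.4 and 93.2 against 221 and 221 CPM (2.37-fold). Mucin-type sugar enzymes split, 12 of 49 higher and 9 lower: the sialyltransferase St3gal4, for which 14.1% of the exons are overlapped on the other strand, rose 5.04-fold (2.81 and 2.92 against 13.9 and 14.9 CPM) and of the fucosyltransferases Fut1 fell 3.86-fold and Fut4 2.15-fold. Among 8 mucins the membrane mucin Muc3 rose 3.56-fold (20.1 and 29.0 against 81.7 and 92.5 CPM) and Muc4 fell 1.83-fold (156 and 133 against 80.8 and 76.8 CPM), with 3 rises and 1 fall in all (2 falls with DESeq2, no filter, values divided by 4 or the 4 libraries alone). Of 21 tetraspanins 4 rose and 3 fell. Claudin rises numbered 2 and falls 0 without WT replicate 1, and claudin falls 0 without WT replicate 2. Keratin falls numbered 0 without WT replicate 2, metalloproteinase falls 4 without Smad4 KO replicate 2 and 0 without WT replicate 1, and tetraspanin falls 1 without WT replicate 1 or Smad4 KO replicate 1.

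Defence genes changed in both directions. Of 16 Reg lectins and antimicrobial proteins 6 rose and 7 fell. Lypd8, which keeps flagellated bacteria from the epithelium, read 355 and 356 CPM in WT and 1369.8 and 1373 CPM in Smad4 KO (3.86-fold, adjusted p = 7.4e-08), and Reg3a rose 3.57-fold. Ang4, a Paneth cell ribonuclease, fell 2.51-fold (278 and 268 against 102 and 115 CPM), the goblet cell protein Retnlb 2.31-fold and the lectin Itln1 1.96-fold (1193 and 1214 against 598 and 629 CPM), and Pigr, which carries IgA to the lumen, 1.33-fold (3221 and 3228 against 2457 and 2403 CPM). The oxidase Duox2 fell 1.39-fold and its maturation factor Duoxa2 1.54-fold, the first lost without WT replicate 1 or Smad4 KO replicate 2 and the latter with any 1 library left out (adjusted p = 0.053 to 0.174), while Nox1, an oxidase of the colon with 12.1% of its exons overlapped on the other strand, rose 5.08-fold (3.44 and 2.74 against 15.4 and 16.1 CPM).

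Of 31 sensors of microbes and parts of pyroptosis 17 rose and 3 fell. Gsdmd, the pore protein of pyroptosis, read 34.9 and 40.3 CPM in WT and 152 and 149 CPM in Smad4 KO (4.004-fold, adjusted p = 1.3e-05), Casp1, which cuts it, 55.7 and 59.0 against 99.1 and 104 CPM (1.77-fold), and the cytokine Il18, which leaves through the pore, 7.31 and 5.09 against 20.3 and 21.1 CPM (3.33-fold). Inflammasome sensors rose too, Naip1 2.61-fold, Naip5 1.79-fold and Nlrp6, a sensor of the gut lining, 1.33-fold, though Naip copies are near-identical. Tlr5 (2.44 and 1.71 against 0.92 and 0.59 CPM) and Nod2 (2.02 and 2.83 against 0.92 and 0.89 CPM) fell, at low levels. Tlr5 was lost with any 1 library left out and Nod2 without WT replicate 2 or either Smad4 KO library (adjusted p = 0.0689 to 0.215). Rises numbered 11 without either WT library, and falls 1 without WT replicate 1 or Smad4 KO replicate 1 and 0 without WT replicate 2 or Smad4 KO replicate 2. Among 18 genes of MHC class I and antigen processing 9 rose, including B2m (lost without WT replicate 2 or Smad4 KO replicate 1, adjusted p = 0.0567 and 0.0536) and the loading factor Tapbp (33.7 and 39.3 against 68.5 and 69.9 CPM, 1.897-fold, with 29.0% of its exons overlapped on the other strand), and 2 fell (Psmb9 and Tap1), with 0 falls without either WT library or Smad4 KO replicate 1 and 1 without Smad4 KO replicate 2. Of 6 interferon-induced GTPases 1 rose. Of 18 genes listed as cytosolic heat shock proteins 7 rose, among them Hspa1b (8.82 and 8.10 against 38.7 and 39.8 CPM, 4.64-fold), and 3 fell. The falls were Hsp90ab1 and the chaperonins Hspd1 and Hspe1, which are mitochondrial and not cytosolic. Hspe1 and Hsp90ab1 fell by little, with log2 fold changes of -0.28 and -0.11 when WT replicate 1 was left out. Neither passed in that fit, and Hspe1 was lost without WT replicate 2 as well.

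Outside the lists, at a mean of at least 20 CPM, the other large rises were in Clu (8.50-fold), the glycosyltransferase Mgat4c (5.75 and 4.63 against 42.5 and 43.7 CPM, 8.29-fold), Msln (8.12-fold), the alcohol dehydrogenase Adh4 (12.7 and 13.3 against 97.6 and 111 CPM, 8.05-fold), Ifit1bl2 (7.38-fold), Acot4 (6.88-fold), a peroxisomal thioesterase, Sh3tc1 (6.83-fold) and the aminopeptidase Enpep (37.8 and 39.95 against 265 and 248 CPM, 6.59-fold). Hddc3 (6.94-fold) overlaps another transcript over 76.3% of its exons. The large falls were in Myl9, a myosin light chain (31.0 and 28.8 against 1.12 and 0.62 CPM, 34.4-fold), Dpysl5 (32.6 and 32.9 against 2.95 and 1.96 CPM, 13.3-fold), the urea carrier Slc14a1 (22.2 and 21.1 against 1.83 and 1.86 CPM, 11.7-fold) and 6 α-defensins of Paneth cells. The defensins ran from Defa22 (9.66-fold) to Defa29 (17.2-fold), and their near-identical copies make single values uncertain. Exosc6 had the lowest log2 fold change of this set, but it read 45.8 and 0.27 CPM in the WT libraries, lies wholly within exons of Aars on the same strand, and was lost with WT replicate 1 left out (Exosc6 log2 fold change -1.25, adjusted p = 0.456), with either Smad4 KO library left out (0.178 and 0.192) and with limma-trend (0.142).

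A scan of 117 families of at least 12 tested genes, formed only by the letters that open their symbols, covered families without picking members by hand. Annexins (9 of 12 higher, the family here taking in an antisense transcript), Ugt (11 of 15), Ces (10 of 14), Akr (8 of 13), Hsd (6 of 13) and Cyp (22 of 48) had the largest shares higher. The Hsd genes, steroid and fatty acid dehydrogenases, were not on a list of their own, and Hsd17b11, a lipid droplet enzyme, had a log2 fold change of 1.45 (94.0 and 93.7 against 248 and 264 CPM). The largest shares lower were in Defa (19 of 20), Nup (12 of 20), Rad (9 of 18), Rpl (25 of 50), Rps (17 of 44) and Prpf (5 of 13). Nup genes encode the nuclear pore, with Nup210 at 115 and 140.5 against 84.1 and 81.7 CPM (1.54-fold lower, adjusted p = 0.0043) and Nup62 at a log2 fold change of -0.51 (adjusted p = 0.00088), and 0 of them rose. Letters can join unrelated genes, as in Rps, which takes in kinases.

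Genes that passed lay on all chromosomes, with shares from 24.1% on chromosome 13 to 35.3% on chromosome 1 among the autosomes and 69.2% (9 of 13) on the mitochondrial genome. Within 10 Mb of Smad4 on chromosome 18, 26 of 84 genes passed (31.0%), beside 30.3% of all genes.

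Promoters of the genes that moved most differed in base composition. Their median GC content was 55.3% for genes at least 2-fold higher, 59.2% for genes at least 2-fold lower and 60.3% for all tested genes with a promoter. The TATA box (TATAAA) was in 17.4% of promoters of the higher and in 39 of 278 of the lower genes, against 8.0% of all. The AP-1 element (TGACTCA) was in 6.3%, 2.9% and 3.7%, and the CDX element (TTTATAG), whose every match holds TATAAA on the other strand, in 5.8%, 6.8% and 2.7%, each as higher, lower and all. Motifs tied to SMADs differed among themselves. The palindrome GTCTAGAC was in 0.9%, 0.0% and 0.3%, the box CAGACA in 20.8%, 12.9% and 15.8%, and the GC-rich element GGCGCC in 12.3%, 15.5% and 20.8%. The GATA element (AGATAAG) stood at 2.7%, 4.0% and 2.0%, the TCF/LEF element (CTTTGAA) at 5.6%, 5.8% and 3.8%, the TEAD element (GGAATG) at 14.5%, 11.2% and 12.1%, and the CCAAT box at 38.5%, 38.8% and 39.2%. Several of these differences were not seen over genes that passed by any fold. There, as higher and lower, the TATA box was in 9.7% and 8.0%, GGCGCC in 19.6% and 22.5% and the CCAAT box in 37.4% and 44.1%. Median GC content was 60.7% and 61.7%, while the AP-1 element kept its order at 5.1% and 2.5%. These shares are descriptions, since base composition moves with them, and the part of base composition was not tested.

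**Figure D4:**
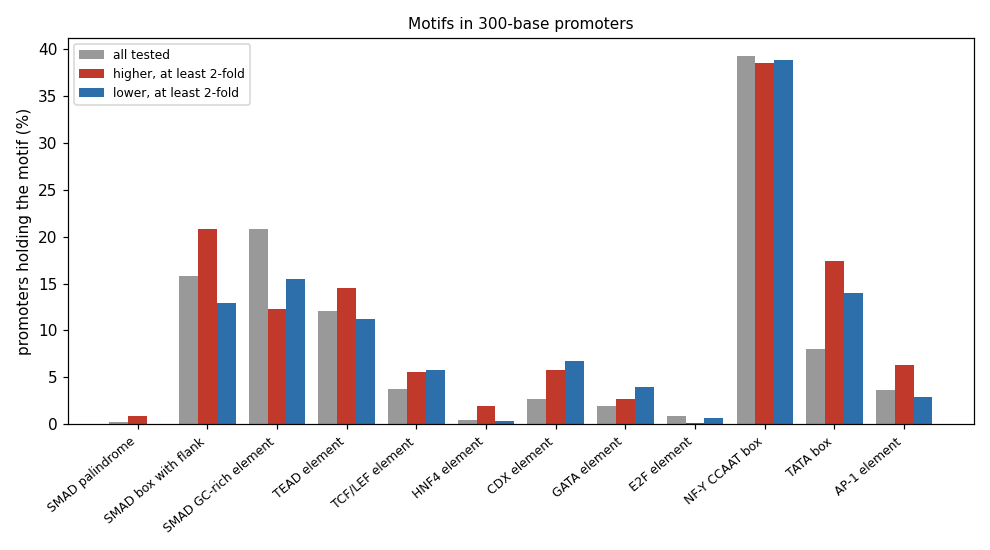
Share of 300-base RefSeq promoters that hold each of 12 motifs on either strand, for all tested genes (9219 promoters), genes at least 2-fold higher (447) and genes at least 2-fold lower (278) in Smad4 KO. The TATA box stands out in the higher genes (17.4% against 8.0% of all), and the GC-rich element GGCGCC is rarer there (12.3% against 20.8%).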

How the data were processed

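Bulk RNA-seq of 6 intestinal organoid libraries, 2 a group, was analysed with groups taken from the titles. The authors deposited estimated counts, one whole number per Ensembl gene and library. The tools listed in the submitters' processing notes are HISAT2 2.1.0, StringTie 1.3.3b, SAMtools 1.9 and FastQC 0.11.9, with build GRCm38 (mm10). Annotation release and strand setting: not given in the sources used here, so overlapping genes and near-identical copies are uncertain. Multiples of 4 made up 42.3% of the low values (1 to 24), against 25% under an even spread. Fragment totals rest on the inference that 1 fragment adds about 4 units.

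Of 31227 genes, 15503 met edgeR's filterByExpr. Its quasi-likelihood test (edgeR 4.0.16, R 4.3.3, TMM scaling, two-sided) was fitted to all 6 libraries with group as the only term, leaving 3 residual degrees of freedom. A gene passed when its Benjamini-Hochberg adjusted p, taken over all genes tested, was under 0.05. Lists were counted and not tested. Gene lists and the rule for naming genes were chosen with earlier results of these data known. The rule named Smad4, then up to 3 passing members per list and direction with the largest change, a mean of at least 5 CPM and no overlap between groups, then 10 genes off the lists per direction at a mean of at least 20 CPM, and the 6 symbol families with the largest share in each direction. It gave 315 genes, of which 252 passed in every alternative. Other genes named, including all that did not pass, were chosen after their values were seen. Results for some genes are not reported here. Exon overlaps and positions come from GENCODE vM21, promoters from RefSeq (GRCm38.p6). Each exon overlap is the share of a gene's exonic bases covered by exons of any other genes on either strand. The gene or strand named with it is that of the largest single overlap. Alternatives were DESeq2 1.42.0, limma-trend (limma 3.58.1), no filter, values divided by 4, the 4 libraries alone, a replicate block and leaving out each library.

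In simulated data for this comparison (15022 genes), 29.9% of genes changed 1.5-fold, 74.6% of those changed 2-fold and 93.9% of those changed 4-fold were recovered. There were 14 false calls (9.59% of calls). The genes changed numbered only 67, 67 and 66 at these folds, whereas 30.3% of genes passed in the data. Recovery and the false share therefore need not carry over to the data.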

Additional observations from a re-analysis of the deposited data

How the results depend on the processing

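The count of passing genes was 5527 with DESeq2, 4862 with limma-trend, 4649 with no filter, 4997 with values divided by 4, 4454 with the 4 libraries alone and 3231 to 3530 without 1 library, against 4704. Of the genes called both in the reported fit and in an alternative, 0 changed direction in any of these. Genes higher ranged from 2015 to 2065 without 1 library and genes lower from 1166 to 1488 (1166, 1227 and 1387 without WT replicate 1, WT replicate 2 and Smad4 KO replicate 1). The labels give same-numbered replicates only the number in common. Differences between replicates 1 and 2 in WT and in Smad4 KO correlated at -0.0223 across genes, which cannot show whether same-numbered libraries were paired. With a replicate block 4184 genes passed, 2385 higher and 1799 lower, and 4090 of them were shared with the reported fit.

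Among 315 named genes 0 reversed under any alternative. Leaving out WT replicate 1 lost 52 of them, WT replicate 2 lost 39, Smad4 KO replicate 1 lost 40 and Smad4 KO replicate 2 lost 33, and further losses were 13 with the replicate block, 9 with the 4 libraries alone, 3 with no filter, 1 with values divided by 4, 1 with limma-trend and 0 with DESeq2. Of the further passing genes named outside the rule, 83 were followed through the alternatives and 0 reversed. Some of these 83 did not pass with 1 library left out. With 2 libraries per group, a member that did not pass is not shown to be unchanged. Differences of 1.5-fold were often missed in simulated data, in which far fewer genes changed than passed here.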

Other observations

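A few genes differed between replicates far more than between genotypes. Among tested genes that reached at least 20 CPM in 1 of the 4 libraries, 9 had replicates of WT or of Smad4 KO at least 20-fold apart, and in 2 this was so in both groups. The tight junction gene Cldn2 read 379 and 0.39 CPM in WT and 0.28 and 269 CPM in Smad4 KO, and the septin Sept2 6.13 and 141 CPM in WT and 0 and 70.5 CPM in Smad4 KO. Neither passed (adjusted p = 0.90 and 0.71). Of the 9, 1 passed, Exosc6. These genes were chosen after their values were seen, and how the authors' counting divided reads at these loci was not tested.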
